A study of Oryza sativa with 8 samples.

Results

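The 100 most abundant transcripts of rice root tips were the genes with the highest mean level over 8 RNA-seq libraries, 100 of 57359 gene IDs. They were chosen by their measured counts in these same libraries. The level used was CPM, the count of a gene divided by the total of its library and multiplied by 1000000, so the mean level itself is a description and not a result. Every library came from poly(A) RNA of root tips of the rice variety Dongjin. Seeds germinated in the dark at 37 °C for 2 days and seedlings then grew in the dark at 28 °C for 3 days in airtight boxes, at different calcium chloride supplies. The 4 groups of 2 libraries are labelled control, calcium, ethylene, and calcium and ethylene, and ethylene gas was given at 2 ppm. The labels name no ethylene dose for control and calcium, give no calcium chloride concentration, and do not say which group stands for low calcium. Nothing says that replicates were grown or sampled separately, so p-values measure how far these libraries vary, and that variation may be technical. In whole root tips, fewer cells of a type and less RNA per cell cannot be told apart. Totals ran from 19099091 to 25907083 counts.

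In a poly(A) library a small part of the genes takes a large part of the reads. In growing plant tissue such genes commonly serve functions that every cell uses, such as protein synthesis, the cytoskeleton, chromatin and primary metabolism, beside a few that are made in quantity by 1 tissue. Ethylene is a gaseous hormone that shortens roots of dark-grown rice seedlings, and it is sensed by receptors that hold the response back until the gas binds. Calcium ions act inside plant cells as a signal for many stimuli. Of the 100 members, 0 matched the rice RefSeq gene table by ID, and the files do not pair IDs with names. No role, name or sequence can therefore be given for a member, and root markers could not be checked. Members are called by their rank, rank 1 being the highest mean CPM, and 4 are also given by ID.

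The members held a like share of unscaled counts in every library. The share was 12.5% and 12.0% in control, 12.2% and 11.4% in calcium, 13.3% and 11.6% in ethylene, and 12.2% and 14.2% in calcium and ethylene. Group means were 12.3% ± 0.360 (SD, n = 2), 11.8% ± 0.588, 12.4% ± 1.16 and 13.2% ± 1.41 in the same order, and every pair of groups overlapped. With counts divided by gene length, the share was 13.4% and 12.2% in control and 12.7% and 11.5% in calcium. It was 15.7% and 13.5% in ethylene, and 13.8% and 16.4% in calcium and ethylene. On that scale all 4 ethylene libraries were above the other 4. The next 100 genes held between 5.69% and 6.04%. Rank 1 held 0.244% to 0.552% of a library.

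**Figure D1:**
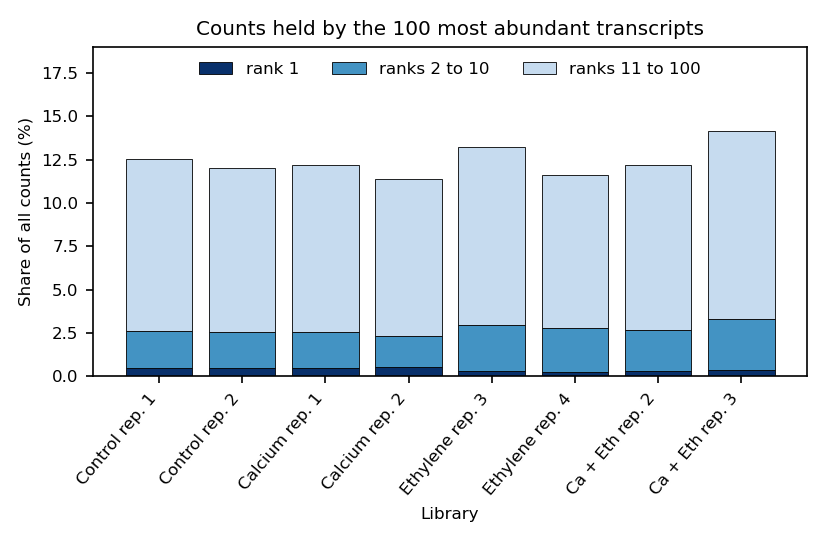
Share of all counts (y axis, percent) in each of the 8 libraries (x axis) held by rank 1, ranks 2 to 10 and ranks 11 to 100, stacked. The bars reach between 11.4% in calcium replicate 2 and 14.2% in calcium and ethylene replicate 3.

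The mean level fell slowly along the list. Rank 1 had a mean of 3963 CPM and rank 100 of 725, a ratio of 5.46. Means of at least 2000 CPM were reached by 8 members and of at least 1000 CPM by 56. At the lower edge, ranks 99 and 100 had 725 and 725 CPM, and the first 2 genes outside had 721 and 716. The first gene outside had 159 and 78.1 CPM in control, 110.2 and 51.5 in calcium, 1714 and 1247 in ethylene and 849.5 and 1562 in calcium and ethylene. Its 4 ethylene libraries were all above the other 4.

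Membership depended on the library. Each of the 100 members was in the top 100 of at least 1 library, 28 were in the top 100 of all 8 libraries, 20 of 7 libraries and 29 of at most 4. The top 100 of a library contained 79 to 87 members in control, 65 and 80 in calcium, 56 and 73 in ethylene and 70 and 78 in calcium and ethylene, with the fewest in ethylene replicate 4. Libraries of 1 group shared 74 to 88 of their top 100 genes, libraries of different groups with the same ethylene treatment 56 to 92, and libraries that differed in ethylene 30 to 67. Ethylene replicate 4 shared 56 and 65 with the calcium and ethylene libraries, within the range of libraries that differed in ethylene. Ranked on the 4 libraries without ethylene or on the 4 with it, the top 100 lists shared 52 genes, all members. A further 26 members were in the top 100 without ethylene alone and 22 in that with ethylene alone.

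None of the 10 highest members was called by edgeR in any comparison. Rank 1 had 4605 and 4662 CPM in control, 4623 and 5522 in calcium, 3153 and 2440.2 in ethylene and 3165 and 3531 in calcium and ethylene. It was lower in all 4 ethylene libraries than in the other 4, with a log2 fold change in ethylene against control of -0.63 (adjusted p = 0.0833, SE 0.22) by edgeR's quasi-likelihood test, which did not pass the threshold of 0.05. Rank 6 had 2843 and 2650.1 CPM in control, 3029 and 3049 in calcium, 2352 and 1858 in ethylene and 2549.8 and 2413 in calcium and ethylene. Again the 4 ethylene libraries were below the other 4. Rank 8 had 2199 and 2203 CPM in control, 2093 and 2348 in calcium, 1932 and 1631 in ethylene and 2102 and 2055 in calcium and ethylene. Its highest library was 1.44 times its lowest. Rank 9 had 1925 and 2053 CPM in control, 1999 and 2146 in calcium, 1950.0 and 1576 in ethylene and 1669 and 2515 in calcium and ethylene, and ethylene was below calcium while the other pairs of groups overlapped.

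Ranks 2, 3, 4 and 10 shared another pattern, with calcium replicate 2 below calcium replicate 1 and ethylene replicate 4 above ethylene replicate 3. Rank 2 had 3049 and 2701 CPM in control, 2796 and 1575 in calcium, 4292 and 6306 in ethylene and 2005 and 3576 in calcium and ethylene. Rank 3 had 3006 and 3227 CPM in control, 3167 and 1946 in calcium, 3193 and 5061 in ethylene and 2313 and 2312 in calcium and ethylene. Rank 4 had 2933 and 2481 CPM in control, 2343 and 1845 in calcium, 3666 and 4869.6 in ethylene and 3279 and 2487 in calcium and ethylene. In these 3 genes calcium replicate 2 was the lowest library and ethylene replicate 4 the highest, and no comparison passed the threshold. Rank 10 had 2247 and 1824 CPM in control, 2687 and 1684 in calcium, 1627 and 2424 in ethylene and 1108 and 2009 in calcium and ethylene, with the groups overlapping. Rank 5 had 2664 and 3157 CPM in control, 2765 and 2779 in calcium, 3179.6 and 1455 in ethylene and 3427 and 4117 in calcium and ethylene. It was lowest in ethylene replicate 4 and highest in calcium and ethylene, and its log2 fold change in calcium and ethylene against ethylene was 0.64 (adjusted p = 0.653, SE 0.33).

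**Figure D2:**
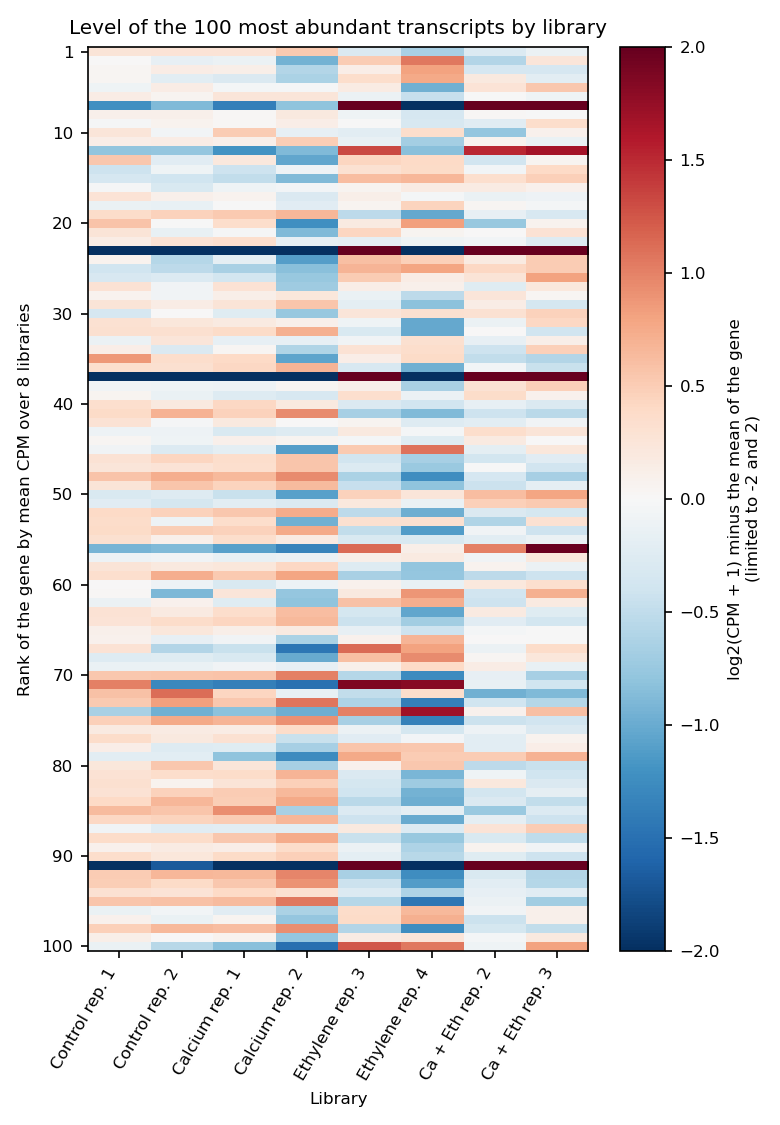
Level of each member (y axis, by rank) in each library (x axis), as log2(CPM + 1) minus the mean of that gene over the 8 libraries, limited to -2 and 2. Many lower-ranked members are blue in the 4 ethylene libraries, and ranks 7, 23, 37 and 91 are dark red in 3 ethylene libraries and blue in ethylene replicate 4.

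The spread across all 8 libraries was under 4-fold for most members. The highest library was under 2 times the lowest for 26 members, 2 to 4 times for 51 and 4 to 10 times for 18, with a median of 2.70. In 5 members it was over 10 times or the lowest library was at 0. These ranges are given for the members alone, without a share of other genes beside them. The extremes fell in few libraries: 47 members were lowest in ethylene replicate 4 and 38 in calcium replicate 2, while calcium replicate 2 was also the highest library for 35. The median absolute difference between the libraries of a group was 0.154 on the log2 scale in control, 0.283 in calcium, 0.335 in ethylene and 0.269 in calcium and ethylene. Genes outside the list with a mean of at least 100 CPM, 1900 in number, had 0.140, 0.228, 0.267 and 0.225. The members' median biological coefficient of variation in the fit was 0.197, against 0.173 in those genes and 0.254 in all genes tested.

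Ethylene against control asked which of these transcripts changed with the gas in control roots. In ethylene 7 members rose and 23 fell, with the threshold of 0.05 applied to edgeR p-values adjusted over 27008 genes. That is 30% of the members, against 17.5% of all genes tested and 35.3% of the 1900 other genes of at least 100 CPM. Those 1900 genes, used for comparison throughout, all lie below the members in mean level. The falls were the larger part, 23% of the members against 7.92% of all genes tested and 20.1% of the 1900 others. The rises were 7% against 9.59% and 15.2%. Of the members, 26 were in the top 100 only on the libraries without ethylene and 22 only on those with it. Calls of such members are not independent of how the list was chosen. Among the members called, the median size was 1.13 on the log2 scale, and 15 falls and 6 rises were at least 2-fold. Over the whole list the median log2 fold change was -0.06, against 0.02 for all genes tested. The number of calls fell when a control library was left out, for members as for all genes: edgeR called 0 of the 100 members without control replicate 2 (1.01% of all genes tested) and 11 without control replicate 1 (8.78%). Without ethylene replicate 4 the count was 23 (7.04% of all genes), in a fit of these 4 libraries alone 19 (11.9%; 7 rising and 12 falling), and with DESeq2 55 (24%; 24 rising and 31 falling).

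The 23 members that fell did so by similar amounts, with log2 fold changes from -1.53 to -0.63 and a median of -1.07. AGIS_Os08g002460, rank 73, fell the most, with 1058 and 1303 CPM in control, 1070.2 and 1553 in calcium, 479.7 and 284 in ethylene and 559 and 496 in calcium and ethylene. Its log2 fold change was -1.53 (adjusted p = 0.0113, SE 0.28), and the 4 ethylene libraries were all under the other 4. AGIS_Os01g008170, rank 75, had 1025 and 1248 CPM in control, 1184 and 1388 in calcium, 466 and 288 in ethylene and 547 and 563 in calcium and ethylene, a log2 fold change of -1.50 (adjusted p = 0.00871, SE 0.25). In both genes ethylene replicate 4 was the lowest library and calcium replicate 2 the highest. Both were under 725 CPM, the mean of rank 100, in every library with ethylene. They are on the list only through libraries without ethylene, so their calls are not independent of the choice of members.

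The next 8 falls were again lowest in ethylene replicate 4 and highest in calcium replicate 2. Rank 48 had 1364 and 1520.4 CPM in control, 1434 and 1767 in calcium, 591 and 388 in ethylene and 727 and 582 in calcium and ethylene, with a log2 fold change in ethylene against control of -1.46 (adjusted p = 0.00831, SE 0.24). Rank 95 had 946 and 964 CPM in control, 1000.2 and 1336 in calcium, 435 and 236 in ethylene and 595 and 397 in calcium and ethylene, a log2 fold change of -1.41 (adjusted p = 0.0178, SE 0.30). Rank 92 had 957 and 1061 CPM in control, 1049 and 1316 in calcium, 429 and 283 in ethylene and 543 and 447 in calcium and ethylene. Its groups with and without ethylene did not overlap, and its log2 fold change was -1.41 (adjusted p = 0.00874, SE 0.24). Rank 98 had 903 and 1010.0 CPM in control, 988 and 1238 in calcium, 430.1 and 273 in ethylene and 506 and 459.5 in calcium and ethylene. Its log2 fold change was -1.35 (adjusted p = 0.01, SE 0.24), again with no overlap. Rank 70 had 1132 and 1145 CPM in control, 1155 and 1572 in calcium, 524 and 326 in ethylene and 697 and 494 in calcium and ethylene, a log2 fold change of -1.33 (adjusted p = 0.0149, SE 0.27). Ranks 41, 84 and 59 had log2 fold changes of -1.22, -1.18 and -1.15 (adjusted p = 0.011, 0.0105 and 0.0108 by edgeR), which completes the 10 deepest falls. Rank 41 had 1329.9 and 1661 CPM in control, 1413 and 1966 in calcium, 647 and 555 in ethylene and 767 and 701 in calcium and ethylene. Rank 84 had 955 and 1148 CPM in control, 1017 and 1235 in calcium, 499 and 370.0 in ethylene and 594 and 515 in calcium and ethylene. Rank 59 had 1097 and 1436 CPM in control, 1252 and 1510.4 in calcium, 556 and 509.6 in ethylene and 606 and 651 in calcium and ethylene. In each of these 3 the 4 ethylene libraries were below the other 4. Ranks 95, 92, 98, 70, 84 and 59 were also under 725 CPM, the mean of rank 100, in every library with ethylene. They too are on the list only through libraries without ethylene, so their calls are not independent of the choice of members.

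All 23 falling members had their lowest library in ethylene replicate 4 and 22 had their highest in calcium replicate 2, with the 4 ethylene libraries under the other 4 in each. Counting members called or not, 36 had all 4 ethylene libraries under the other 4 and 17 had them above. Over all genes tested this held for 21.3% and 17.6%, and over the 1900 other genes of at least 100 CPM for 33.6% and 22.5%. Together the 23 held 2.70% ± 0.181 (SD, n = 2) of counts in control and 1.19% ± 0.283 in ethylene, the libraries on which they were called, and 3.07% ± 0.410 in calcium and 1.54% ± 0.121 in calcium and ethylene, which the call did not compare. The latter libraries still entered the choice of members and the single fit, so their shares are a description and not an independent test. By position on the list, 1 fall was among ranks 1 to 25, 5 among ranks 26 to 50, 7 among ranks 51 to 75 and 10 among ranks 76 to 100.

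The 7 members that rose came from ranks 15 to 100 and differed more among themselves. AGIS_Os10g009540, rank 74, rose the most, with 430.0 and 345 CPM in control, 379.7 and 344 in calcium, 1364 and 2189 in ethylene and 715 and 1029 in calcium and ethylene. Its log2 fold change in ethylene against control was 2.30 (adjusted p = 0.00577, SE 0.32). AGIS_Os08g007980, rank 56, had 378 and 392 CPM in control, 339.6 and 289 in calcium, 1592 and 779.9 in ethylene and 1449 and 2839.7 in calcium and ethylene, a log2 fold change of 1.72 (adjusted p = 0.0275, SE 0.41). The ethylene libraries of rank 56 were far apart, with ethylene replicate 4 the lowest of the 4 libraries with the gas. Rank 100 had 549 and 408 CPM in control, 336 and 211 in calcium, 1425 and 1251 in ethylene and 566 and 1056 in calcium and ethylene, a log2 fold change of 1.58 (adjusted p = 0.0241, SE 0.37). Ethylene libraries were above the other libraries in each of these 3 genes.

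The other 4 rises were smaller. Rank 25 had 960.5 and 877 CPM in control, 807 and 703 in calcium, 2014 and 2180.2 in ethylene and 1686 and 1792 in calcium and ethylene, with a log2 fold change of 1.29 (adjusted p = 0.00734, SE 0.20) in ethylene against control. Rank 15 had 1243 and 1198 CPM in control, 1119 and 857 in calcium, 2423 and 2501 in ethylene and 1988 and 2181 in calcium and ethylene, a log2 fold change of 1.11 (adjusted p = 0.0125, SE 0.21). Rank 15 was the highest member to change in this comparison. Rank 68 had 700.0 and 702 CPM in control, 672 and 415 in calcium, 1259.7 and 1604 in ethylene and 855 and 979.8 in calcium and ethylene, a log2 fold change of 1.13 (adjusted p = 0.025, SE 0.27). Rank 79 had 636 and 637 CPM in control, 424 and 308 in calcium, 1251 and 1046 in ethylene and 1055 and 1196 in calcium and ethylene, a log2 fold change of 0.95 (adjusted p = 0.0233, SE 0.22). All 7 had their lowest level in calcium replicate 2, and all 4 ethylene libraries were above the other 4. Ranks 74, 56, 100, 68 and 79 were under 725 CPM, the mean of rank 100, in every library without ethylene. They are on the list only through libraries with ethylene, so their calls are not independent of the choice of members. The 7 together held 0.473% ± 0.0238 (SD, n = 2) of counts in control and 1.14% ± 0.0158 in ethylene, and in libraries not compared in that call 0.360% ± 0.0671 in calcium and 0.969% ± 0.195 in calcium and ethylene. These latter libraries too entered the choice of members and the single fit.

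**Figure D3:**
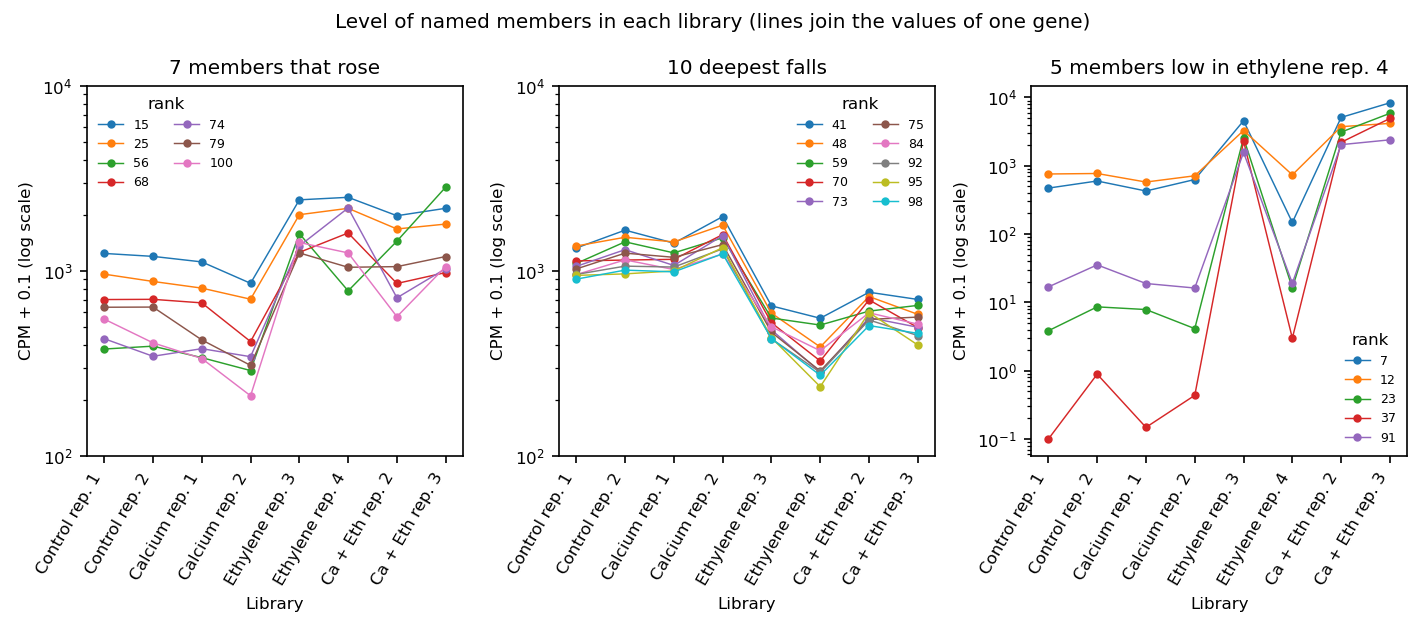
CPM plus 0.1 on a log axis (y) in each library (x) for the 7 members that rose in ethylene against control, the 10 deepest falls, and the 5 members at least 4-fold lower in ethylene replicate 4 than in ethylene replicate 3. Lines join the values of 1 gene and stand for no order. The falls and rises separate the 4 ethylene libraries from the other 4, and the 5 members are far lower in ethylene replicate 4 than in the other 3 ethylene libraries.

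Calcium and ethylene against calcium asked the same in the calcium groups, in libraries that share none with the first comparison. With ethylene 13 members rose and 21 fell, which is 34% of the list against 17.8% of all genes tested and 33.1% of the 1900 other genes of at least 100 CPM. Rises were 13% against 9.4% and 14.6%, and falls were 21% against 8.36% and 18.5%. The falls ranged from -1.29 to -0.73 on the log2 scale and the rises from 0.61 to 9.61. Rank 23, the largest of these rises, is on the list only through libraries with ethylene, so its call is not independent of the choice of members. That limit holds too for other members that reached the list only through libraries with ethylene, or only through those without it. DESeq2 called 51 members (25% of all genes tested; 22 rising and 29 falling), and a fit of these 4 libraries alone 41 (20.6%). Here too, the calls depended on single libraries, for members as for all genes. Leaving out a control, calcium, or calcium and ethylene library lowered them, and leaving out an ethylene library raised them. Leaving out calcium replicate 2 gave 2 member calls (2.98% of all genes tested), and leaving out calcium and ethylene replicate 3 also gave 2 (1.89%). The count was 24 (10.9%) without calcium replicate 1, 22 without either 1 of the control libraries (13.3% and 13.5%), and 6 (3.94%) when calcium and ethylene replicate 2 was dropped. Of the called values, those of ranks 23, 56 and 100 moved by over 1.5 times when a library was left out, to log2 fold changes of 9.01, 2.17 and 1.02 without calcium and ethylene replicate 3.

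Many of the members called in 1 of these comparisons were called in the other. In both comparisons 6 members rose and 20 fell, with 0 in opposite directions, 4 called in ethylene against control alone and 8 in the calcium groups alone. Over all genes tested 6.18% rose in both and 5.52% fell in both, and over the 1900 other genes of at least 100 CPM 11.4% and 16.7%. Rises in both, 6% of the members, were thus near the share of all genes tested and under that of the 1900 others. Falls in both, 20% of the members, were above both shares. Of all 27008 genes tested, 0 were called in opposite directions, 1566 in the first comparison alone and 1637 in the second alone. Called or not, 90% of members had the same sign in both, against 83.1% of all genes tested and 90.3% of the 1900 others. Both comparisons come from a single fit and share its estimate of spread. All 8 libraries also chose the list. Some members reached it only through libraries with ethylene, or only through those without it. Their calls in both comparisons are not independent of that choice. All 30 members called in ethylene against control kept their sign in the calcium groups, where the 23 falls had a median log2 fold change of -1.004. A call in 1 comparison alone does not show a difference, which is the interaction below. Rank 73 had a log2 fold change in calcium and ethylene against calcium of -1.29 (adjusted p = 0.0196, SE 0.28) and rank 75 of -1.19 (adjusted p = 0.0171, SE 0.25) by edgeR. Rank 74 had 1.30 (adjusted p = 0.0246, SE 0.31) and rank 56 2.81 (adjusted p = 0.00865, SE 0.43). Rank 68 had 0.78 (adjusted p = 0.0761, SE 0.27) and did not pass the threshold there.

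The remaining named falls and rises were called there too. The 10 deepest falls had log2 fold changes of -1.29 to -1.004 in calcium and ethylene against calcium, and all 10 passed the threshold by edgeR. Among the rises, rank 79 had 1.65 (adjusted p = 0.00588, SE 0.23), rank 100 1.60 (adjusted p = 0.0242, SE 0.37), rank 25 1.23 (adjusted p = 0.00876, SE 0.20) and rank 15 1.10 (adjusted p = 0.0139, SE 0.21). Rank 79 was thus called in both sets, with calcium replicate 2 at its lowest level. For calcium supply, the log2 fold changes of the 10 falls were 0.10 to 0.29 in calcium against control and 0.16 to 0.49 in calcium and ethylene against ethylene. Those of the 7 rises were -0.81 to -0.10 and -1.10 to 0.80, and none of these 17 passed by edgeR in either calcium comparison.

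The 8 members called in the calcium groups alone were 7 rises and 1 fall. Rank 50 had 771 and 793 CPM in control, 699 and 446 in calcium, 1308 and 1127 in ethylene and 1459 and 1640.5 in calcium and ethylene, with log2 fold changes of 1.46 (adjusted p = 0.0103, SE 0.25) in calcium and ethylene against calcium and 0.74 (adjusted p = 0.0725, SE 0.25) in ethylene against control, by edgeR. Rank 26 had 1039 and 1072 CPM in control, 1006 and 764 in calcium, 1842 and 1443 in ethylene and 1540.5 and 2258 in calcium and ethylene, and rank 30 had 1012 and 1283 CPM in control, 1076 and 749 in calcium, 1512 and 1591 in ethylene and 1566 and 1752 in calcium and ethylene. All 3 were lowest in calcium replicate 2. Their log2 fold changes in calcium and ethylene against calcium were 1.46, 1.13 and 0.89, with adjusted p = 0.0256 for rank 26 and 0.0388 for rank 30. Ranks 43 and 51 rose by 0.61 and 0.78 on the log2 scale (adjusted p = 0.0482 and 0.03 by edgeR), and rank 90 fell by 0.74 (adjusted p = 0.0318). Ranks 12 and 23, the other rises, belong to the genes described next. These 8 were chosen after their values were seen.

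**Figure D4:**
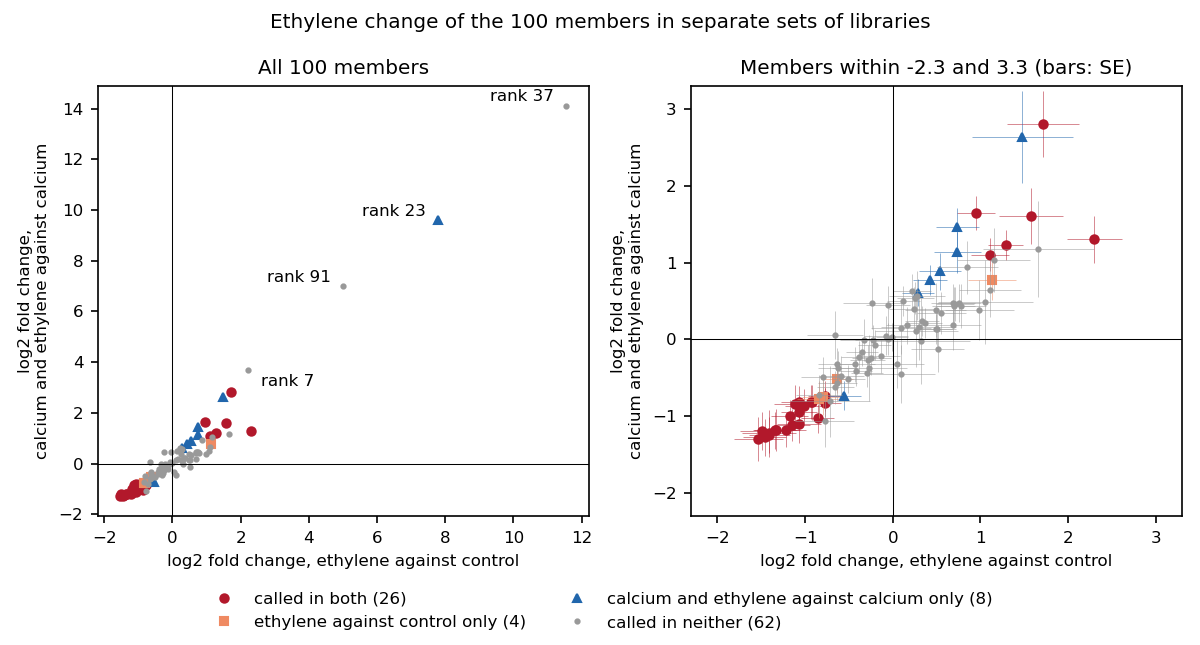
Log2 fold change of each member in ethylene against control (x axis) and in calcium and ethylene against calcium (y axis), with all 100 members at left and those within the narrower axis limits at right with standard errors as bars. Colour and shape show in which comparison a member passed an adjusted p of 0.05. The 26 members called in both lie in the lower left and upper right parts.

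A set of 5 members was high in 3 of the 4 ethylene libraries and low in the other. Ranks 7, 12, 23, 37 and 91 were at least 4-fold lower in ethylene replicate 4 than in ethylene replicate 3, a limit set after the values were seen. They are 5% of the members, against 14 of the 1900 other genes of at least 100 CPM and 784 of all 27008 genes tested. Rank 7 had 471 and 598 CPM in control, 427 and 628 in calcium, 4553 and 148 in ethylene and 5096 and 8337 in calcium and ethylene. It was the most abundant of all genes in ethylene replicate 3 and in both calcium and ethylene libraries. Without ethylene replicate 3 its log2 fold change in ethylene against control of 2.22 (adjusted p = 0.276, SE 1.29) became -1.72 (adjusted p = 0.0230, edgeR), so its direction rested on that library. Rank 12 had 757 and 769.8 CPM in control, 577 and 713 in calcium, 3275 and 736 in ethylene and 3730.0 and 4167 in calcium and ethylene, and rank 91 had 16.7 and 35.3 CPM in control, 18.8 and 16.1 in calcium, 1564 and 19 in ethylene and 2035 and 2394 in calcium and ethylene. The IDs of ranks 12 and 91 stand next to each other in the table.

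Ranks 23 and 37 were nearly off in the libraries without ethylene. Rank 23 had 3.74 and 8.5 CPM in control, 7.76 and 4.03 in calcium, 2556 and 16.1 in ethylene and 3109 and 5847 in calcium and ethylene, and its control counts were 78 and 183. Rank 37 had 0 and 0.79 CPM in control, 0.0482 and 0.336 in calcium, 2296 and 2.9 in ethylene and 2204 and 4918 in calcium and ethylene, with 0 and 17 counts in control. A count of 0 in control replicate 1 allows a level of up to 0.144 CPM for counting error, with a limit of 3 counts. The level of rank 37 in ethylene replicate 3 was 793-fold that in ethylene replicate 4, and for rank 23 the ratio was 158, for rank 91 82.2, for rank 7 30.9 and for rank 12 4.45. In calcium and ethylene against calcium, ranks 12 and 23 passed the threshold, with log2 fold changes of 2.64 (adjusted p = 0.0277, SE 0.60) and 9.61 (adjusted p = 0.0494, SE 2.48) by edgeR, and ranks 7, 37 and 91 did not (adjusted p = 0.112, 0.0537 and 0.0547), although both calcium and ethylene libraries were above both calcium libraries in each, as they were for 32.6% of all genes tested. The list was chosen by the mean over all 8 libraries, to which the high ethylene libraries of these genes contribute most, so these calls are a description and not independent of that choice. In ethylene against control the adjusted p was 0.276, 0.12, 0.0709, 0.0718 and 0.103 for ranks 7, 12, 23, 37 and 91.

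The 5 members moved the share of counts held by the list. They held 0.125% and 0.141% of counts in control, 0.103% and 0.136% in calcium, 1.42% and 0.0921% in ethylene, and 1.62% and 2.57% in calcium and ethylene. The other 95 members held 12.4% and 11.9% in control, 12.1% and 11.2% in calcium, 11.8% and 11.5% in ethylene, and 10.6% and 11.6% in calcium and ethylene. Without the 5, the share was no longer highest in calcium and ethylene replicate 3. Whether the gap between the ethylene libraries came from the material or the handling was not tested.

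The comparison of calcium with control bears on calcium supply in roots not labelled as given ethylene. No member was called by edgeR, as no gene was (0% of genes tested), and DESeq2 called 0 members. An unadjusted p under 0.05 was reached by 2 members, or 2%, against 3.84% of all genes tested. The median size of the change was 0.20 on the log2 scale, against 0.69 in ethylene against control. For 74 members the 95% interval of the fold change lay within 2-fold in either direction, as for 51% of all genes tested and 84.7% of the 1900 other genes of at least 100 CPM. The member that differed most was rank 71, with 1177 and 239 CPM in control, 227 and 206 in calcium, 2143 and 2067 in ethylene and 528 and 443 in calcium and ethylene. Control replicate 1 was above both calcium and ethylene libraries, while control replicate 2 was close to the calcium libraries, and the log2 fold change in calcium against control was -1.72 (adjusted p = 1, SE 0.63). At 240 bases rank 71 is the shortest member.

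The comparison of calcium and ethylene with ethylene bears on calcium supply under the gas. No member was called by edgeR (0% of genes tested). An unadjusted p under 0.05 was reached by 13 members, or 13% against 7.69% of all genes tested. DESeq2 called 1 member, against 0.666% of all genes tested. That member was rank 74, with 1364 and 2189 CPM in ethylene and 715 and 1029 in calcium and ethylene, a log2 fold change of -1.10 (adjusted p = 0.629, SE 0.30) by edgeR and -1.09 (adjusted p = 0.0290) by DESeq2. The ethylene and calcium and ethylene groups of rank 74 did not overlap, and 18.5% of all genes tested had calcium and ethylene wholly lower. Rank 74 was named for its rise in ethylene against control, which used the same ethylene libraries. Its value here is not independent of that choice. The median log2 fold change over the members was 0.14, against 0.00 for all genes tested. It was 0.04 without ethylene replicate 4, 0.05 when calcium and ethylene replicate 3 was dropped, and 0.24 without ethylene replicate 3. For 60 members the 95% interval lay within 2-fold, as for 45.1% of all genes tested and 77.2% of the 1900 others. Without ethylene replicate 3, which leaves ethylene replicate 4 alone in its group, 6 members were called, against 1.22% of all genes tested: ranks 5, 7, 12, 23 and 91 as higher and rank 74 as lower.

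The interaction asked whether the ethylene change differed between the calcium supplies. No member was called by edgeR (0% of genes tested), 1 had an unadjusted p under 0.05, or 1% against 2.38% of all genes tested, and DESeq2 called 0. A p that misses the threshold does not show equal changes. For 50 members the 95% interval of the difference lay within 2-fold, as for 31.2% of all genes tested and 71.9% of the 1900 others. Rank 74 had an interaction of -0.999 on the log2 scale, with an unadjusted interval of -1.97 to -0.03. Rank 56 had 1.09, with an interval of -0.22 to 2.41. Rank 73 had 0.24 (-0.66 to 1.13) and rank 75 0.31 (-0.48 to 1.09), each with adjusted p = 1 by edgeR. Ranks 73, 74, 75 and 56 were named by their change in ethylene against control, whose libraries also enter the interaction. That choice favours an interaction opposite in sign to the change. Without ethylene replicate 3, 3 members were called, ranks 7, 12 and 91, against 0.0707% of all genes tested.

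A group of 21 members had a 95% interval within 2-fold in all 4 comparisons between groups. The share of other genes with such intervals in all 4 was not computed. In ethylene against control 33 members had one, against 29.9% of all genes tested and 48.5% of the 1900 others. In calcium and ethylene against calcium 31 members did, against 30.2% and 47.8%. Rank 57 had 922 and 945 CPM in control, 888 and 910.4 in calcium, 1069 and 1122 in ethylene and 939 and 1137 in calcium and ethylene, so its highest library was 1.28 times its lowest. Rank 44 had 1119 and 1024 CPM in control, 1174 and 1129.6 in calcium, 1066 and 924 in ethylene and 1234 and 1096 in calcium and ethylene, a ratio of 1.34. Rank 16 had 1629 and 1329 CPM in control, 1555 and 1595 in calcium, 1709 and 1856 in ethylene and 1848 and 1751 in calcium and ethylene, a ratio of 1.40. These are the narrowest spreads among the 21, chosen by their intervals, which also hold ranks 6, 8 and 9. In rank 57 both ethylene libraries were above both control libraries, and in rank 44 these groups overlapped. Members called in neither ethylene comparison numbered 62 and held 8.44% ± 0.531 (SD, n = 2) of counts in control, 7.79% ± 0.886 in calcium, 9.05% ± 0.460 in ethylene and 8.97% ± 1.04 in calcium and ethylene.

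Over the members, the gap between the libraries of a group was set beside the ethylene change measured in other libraries. Across the 100 members, which are not independent replicates and share the fit, the difference between calcium replicates 2 and 1 had a Spearman correlation of -0.579 and a Pearson correlation of -0.062 with the log2 fold change in ethylene against control, whose libraries are separate. Over all genes tested the Spearman correlation was -0.209. Members that fell with ethylene were thus often higher in calcium replicate 2, and of the 23 falls 22 were. The difference between calcium and ethylene replicates 3 and 2 had correlations of 0.614 (Spearman) and 0.562 (Pearson), against a Spearman correlation of 0.174 over all genes tested. For control replicates 2 and 1, set against the calcium groups, the correlations were -0.266 (Spearman) and 0.558 (Pearson), and for ethylene replicates 4 and 3 they were 0.212 and -0.843. Over all genes tested the Spearman correlations were -0.222 for control, near that of the members, and 0.0704 for ethylene. The Pearson correlations over all genes tested were -0.0259 for calcium, 0.186 for calcium and ethylene, -0.108 for control and -0.253 for ethylene. Over the members, rank and linear correlations differed in sign for 2 of the 4 gaps. The part of this spread in the calls was not tested.

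The order of the genes depended on whether counts were divided by gene length. How far length shaped the counts themselves was not tested. The members had a median length of 1538 bases in the deposited table, from 240 to 4737, against 1755 in the genes tested. With counts divided by length and rescaled to a common total per library, 58 of the 100 members stayed among the 100 highest genes, and 10 fell past the 300th place. Rank 1 was also first by length-scaled level. The members placed next were ranks 71 and 61, of 240 and 258 bases, at 2 and 3. Rank 61 had 866 and 457 CPM in control, 1014 and 499 in calcium, 986 and 1584 in ethylene and 659 and 1404 in calcium and ethylene, where both ethylene libraries were above both control libraries and the other groups differing in 1 treatment overlapped. Rank 99, of 4737 bases, had a place of 708 and CPM of 417 to 845.

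Some members lie beside each other in the table. The chromosome field of the IDs reads 3 for 21 members, 2 for 14 and 8 for 11, which is 0.640%, 0.469% and 0.638% of the tested genes with that field, against 0.121% for 9, with 3 members. Only members that follow each other in ID order were paired. Of 6 such pairs at most 5 table rows apart, ranks 36, 47 and 32 form 2 and have the same length of 1344 bases. Rank 32 had 1532 and 1519.9 CPM in control, 1591 and 2001 in calcium, 995 and 598 in ethylene and 1224 and 929 in calcium and ethylene. Rank 36 had 1437 and 1421 CPM in control, 1516 and 1823 in calcium, 907 and 584 in ethylene and 1096 and 829.9 in calcium and ethylene. Rank 47 had 1204 and 1226 CPM in control, 1279.7 and 1495 in calcium, 837 and 607 in ethylene and 1006 and 779.7 in calcium and ethylene. In all 3 ethylene replicate 4 was the lowest library and calcium replicate 2 the highest. Rank 36 passed in ethylene against control, with a log2 fold change of -0.84 (adjusted p = 0.0456, SE 0.24), while ranks 32 and 47 had -0.84 (adjusted p = 0.0581, SE 0.26) and -0.65 (adjusted p = 0.0675, SE 0.21) by edgeR. How reads were shared between near-identical copies is unknown for these counts, so values of genes of equal length and neighbouring ID may not be separate measurements. Ranks 50 and 93, also neighbours, went in opposite directions, with log2 fold changes in calcium and ethylene against calcium of 1.46 and -1.10 (adjusted p = 0.0103 and 0.0232).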

How the data were processed

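The members, lists and settings were chosen with earlier results of these data known. The authors deposited whole-number read counts per gene for the 8 libraries of the 4 groups, with a length per gene, for which the submitters' processing notes list fastp and featureCounts. The sources used here do not name the aligner, genome build, annotation or strand setting, and reads of overlapping, antisense or near-identical genes cannot be told apart. None (0) of the 57359 IDs matched a RefSeq table of 39387 genes.

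Members were the 100 genes with the highest mean CPM. The test was edgeR 4.0.16 under R 4.3.3: filterByExpr with a minimum count of 10 kept 27008 genes, all members among them, libraries were scaled by TMM, and all 8 entered a single robust quasi-likelihood fit by group (4 residual degrees of freedom). Benjamini-Hochberg adjustment ran over all genes tested (threshold 0.05). The fold change and its F statistic gave the SE, and 95% intervals from the fit's total degrees of freedom. Differences between libraries of a group used log2 CPM with a prior count of 2. The fit was tested on simulated data. Amplified reads are not independent molecules, so limits of 3 counts cover counting error only. Each group has 2 libraries, so no permutation test of a comparison could pass the threshold.

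Members described were ranks 1 to 10, ranks 99 to 102, and the 10 largest rises (7 qualified) and 10 deepest falls (of 23) in ethylene against control with an adjusted p under 0.05 and groups that did not overlap, beside those said to be chosen after their values were seen. No list of pathway genes or markers could be filled, since no ID has a name. Alternatives were RLE size factors, library totals, TMM factors from genes outside the list, DESeq2 1.42.0, leaving low counts unfiltered, keeping genes at 1 CPM in 2 libraries, the libraries compared alone, the replicate number as a block, and leaving out each library. Plots used matplotlib 3.10.9 (Python 3.11.15).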

Additional observations from a re-analysis of the deposited data

Results flagged for a closer look

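For 4 of the 100 members (4%), against 1.84% of the 1900 other genes of at least 100 CPM and 3.1% of all genes tested, the calcium libraries lay wholly on one side of control while the calcium and ethylene libraries lay wholly on the other side of ethylene. The 4 are ranks 12, 43, 50 and 60, each lower in calcium than in control and higher in calcium and ethylene than in ethylene. The interaction was 1.16 on the log2 scale for rank 12, 0.32 for rank 43, 0.72 for rank 50 and 0.38 for rank 60, and edgeR's test of that difference gave an adjusted p of 1 for each. Without ethylene replicate 3 rank 12 had 2.57 (adjusted p = 0.0288). For the ethylene change without and with calcium, 0 of 100 members had groups apart in opposite directions, against 1.4% of all genes tested.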

How the results depend on the processing

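In ethylene against control, the 30 members called became 55 with DESeq2, 19 with only the 4 libraries compared, 1 under the replicate block, and between 0 and 43 when a library was dropped. In calcium and ethylene against calcium, the 34 became 2 to 45 with 1 library left out and 38 with the block. In calcium and ethylene against ethylene the count of 0 became 1 with DESeq2, 1 when low counts were kept, and 0 to 6 with 1 library left out, and the interaction gave 0 to 3. Calcium against control gave 0 members under every alternative, of which the 4-library fit tested 99 members. Scaling by RLE, by library totals or by TMM factors from genes outside the list gave 28, 31 and 29 calls in the first comparison and 32, 31 and 33 in the second. In the second, DESeq2 called 51 (25% of all genes tested) and the 4 libraries compared alone gave 41 (20.6%). With low counts kept, the calls were 41 (16.4%) in the first and 39 (17.1%) in the second. Under the block, 0.156% of all genes tested were called in the first and 13.1% in the second. Over the alternatives, 44 of the 135 values of named members lay on both sides of 0, and 0 of these 44 were called as reported. Rank 7 in ethylene against control, 2.22 as reported, was called with opposite signs, at -1.72 without ethylene replicate 3 and 3.18 without ethylene replicate 4. The share of counts, 0.170 percentage points higher in ethylene than in control and 1.38 higher in calcium and ethylene than in calcium, was 1.77 and 2.97 with length-scaled counts and -0.653 to 0.992 and 0.385 to 2.38 with 1 library left out. Of the members, 58 stayed in the top 100 by length-scaled level, 91 by median CPM, 98 by TMM-normalised CPM, 78 and 74 on libraries without and with ethylene, and 94 to 99 with 1 library left out. Dropping a library leaves fewer libraries in the fit, and for the other changes the cause was not tested. Libraries were not paired by replicate number: no label says what they mean, and their deviations from group means correlated at 0.180 for control with calcium (numbers 1 and 2), at 0.104 and 0.107 for these with the number 2 library of calcium and ethylene, and at 0.0154 for the number 3 libraries. Number 4 occurs in 1 library, so under the block ethylene rests on replicate 3, with 1 residual degree of freedom. A group left with 1 library borrows the variation of the rest.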

Other observations

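Across the 8 libraries 206 genes were in the top 100 of at least 1 library, so 106 genes outside the list were among the most abundant somewhere. The top 100 of ethylene replicate 4 held 44 of them, more than that of any other library, and that of calcium replicate 2 held 35. The least abundant gene by mean to enter a library's top 100 stood at place 514 and reached 1075 CPM in calcium and ethylene replicate 2.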
